A study of Mus musculus with 22 samples.

Results

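The 9 genes described here are *Sst*, *Npy*, *Vip*, *Cck*, *Crh*, *Pvalb*, *Calb2*, *Reln* and *Lhx6*, 9 of the 39179 genes counted in the series, chosen by name because their products tell the subtypes of inhibitory interneurons apart. RNA-seq was performed on 22 mouse samples, labelled as strain background B6x129SvJ (written as C57B6/129SvJae in the study's methods), either wild type (WT) or carrying a *Phf8* knockout (KO) allele that lacks exons 7 and 8 of this X-linked gene for a histone demethylase. Prefrontal cortex (PFC) and ventral striatum (STR) came from mice aged 2 months, with 3 WT and 3 KO samples for each region. Neural progenitor cells (NPC), grown as a monolayer from embryonic brain, also gave 3 WT and 3 KO samples, whereas embryonic stem cells (ESC) gave 2 of each genotype. The KO allele was made by Cre deletion in clones of V6.5 ESCs before it was passed to mice, so that the deletion is present in every cell of the animals, and ESCs were kept on gelatin or feeder cells. Whether the samples of a group came from separate animals or cultures is not stated in the sources used here, and the p-values below then measure only the spread between these samples, which may be technical.

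Inhibitory interneurons release GABA onto nearby neurons and are sorted into subtypes by the peptides and proteins that they make. Many cortical interneurons are born in the medial ganglionic eminence, where the LIM-homeodomain transcription factor *Lhx6* is switched on; these become the cells that carry *Pvalb* (parvalbumin, a calcium buffer of fast-spiking cells) or *Sst* (somatostatin, an inhibitory peptide). Cells with *Vip* (vasoactive intestinal peptide) and many with *Calb2* (calretinin, another calcium buffer) derive mainly from the caudal ganglionic eminence, and *Reln* (reelin, a large secreted protein that guides neuronal layering) marks further cells. *Npy* (neuropeptide Y), *Cck* (cholecystokinin) and *Crh* (corticotropin-releasing hormone) are made by subsets of these cells. Not all of them are restricted to interneurons, and *Cck* in particular is also strongly made by cortical projection neurons.

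The 9 genes lie on 9 different chromosomes of GRCm38. On the plus strand lie *Npy* (chr6:49822710-49829507) and *Vip* (chr10:5639218-5647617). On the minus strand lie *Sst* (chr16:23889573-23890958), *Cck* (chr9:121489824-121495694), *Crh* (chr3:19693401-19695396), *Pvalb* (chr15:78191114-78206400), *Calb2* (chr8:110137502-110168210), *Reln* (chr5:21884454-22344702) and *Lhx6* (chr2:36081953-36105408). Exons of *Gm10475* overlap *Reln* on the opposite strand and exons of *Gm27953* overlap *Lhx6* on its own strand, so that their counts are less certain than those of the other genes.

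The classical cyclic AMP response element TGACGTCA, through which CREB-type factors act, was described in the *Sst* promoter, and its letters were searched on both strands in the RefSeq promoter windows (build GRCm38.p6, 250 bases before to 50 after each start) that existed for 7 of the 9 genes. Of all 32851 windows, 1.79% held the full motif and 20.8% held the shorter core TGACG, which the full motif contains on both strands. Among the 10 windows of these 7 genes, that of *Sst* held the full motif, and those of *Vip* and *Cck* held the core alone. *Crh* and *Calb2* had no window, so that nothing is said here of their promoters. The core was thus in 3 of the 10 windows (30%), that of *Sst* included, against 20.8% of all windows. Whether the core had a part in how *Vip* and *Cck* varied among the samples was not tested. The stretches of these 3 genes have the motif or core in capitals. They lie at chr16:23890855-23890922 (minus strand) for *Sst*, chr10:5639109-5639173 (plus strand) for *Vip* and chr9:121495707-121495771 (minus strand) for *Cck*.
Sst: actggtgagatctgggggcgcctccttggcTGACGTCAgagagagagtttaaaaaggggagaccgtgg
Vip: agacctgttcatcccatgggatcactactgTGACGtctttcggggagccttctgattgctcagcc
Cck: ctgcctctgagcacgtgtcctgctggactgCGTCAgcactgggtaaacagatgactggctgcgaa
The motif starts 48 bases before the RefSeq start used for *Sst*. The core starts 79 bases before that of *Vip* and 47 before that of *Cck*, where it is read on the opposite strand. For *Sst*, this RefSeq start and the stretch shown lie inside the gene span given above, which begins further upstream. A match of letters is a description, and no binding was measured here.

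Total gene counts per sample ranged from 5898286 to 15539811, the lowest being WT replicate 3 of PFC. *Phf8* was at 38.5 to 71.2 CPM (counts scaled to the effective size of each library) in the WT samples and at 13.4 to 22.3 CPM in the KO samples, with no overlap in any tissue. Regional markers matched the labels. Summed over 10 genes of cortical projection neurons, PFC samples were at 1321 to 1632 CPM and STR samples at 284 to 831 CPM, and 10 genes of striatal projection neurons summed to 1734 to 2415 CPM in STR against 289 to 352 CPM in PFC. Transcripts of the cortical list were thus present in STR as well. Since these are bulk samples, fewer cells of a type and less RNA per cell cannot be told apart at any gene.

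A single STR sample, KO replicate 1, stood apart. A list of 12 hypothalamic genes summed to 220.5 CPM in it and to 22.2 to 44.1 CPM in the other 5 STR samples, with *Avp* at 62.7 CPM (0.480 to 6.10 in the others), *Trh* at 58.8 CPM (8.37 to 16.2), *Oxt* at 39.5 CPM (0.360 to 9.66) and *Otp* at 17.8 CPM (0.120 to 0.499). The hypothalamic sum was also higher in the other KO samples, at 44.1 CPM in replicate 2 and 33.3 CPM in replicate 3 against 22.2 to 26.2 CPM in WT. Not all genes of the list rose there. *Oxt*, *Avp* and *Trh* were above every WT sample in both, whereas *Sim1* had 0 counts and *Otp* and *Pomc* did not exceed the highest WT sample. The study reported that qRT-PCR in further mice did not reproduce some striatal differences, those of *Oxt* and *Avp* among them. Its authors propose that part of these differences came from hypothalamic contamination, which was not tested here. KO replicate 1 also had a cortical projection neuron sum of 284 CPM, against 614 to 831 CPM in the other STR samples. Of the 9 interneuron genes, 8 fell outside the range of those 5 samples, as did 40.6% of 15476 genes. *Calb2* (98.3 CPM against 37.2 to 67.7), *Lhx6* (101.5 against 48.7 to 72.3), *Reln*, *Pvalb* and *Crh* were above it, *Cck* (27.6 against 53.2 to 76.7), *Vip* (12.6 against 17.8 to 25.1) and *Npy* were below it, and *Sst* alone was within. Main test results and correlations that rest on this sample are therefore given with and without it.

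**Figure D1:**
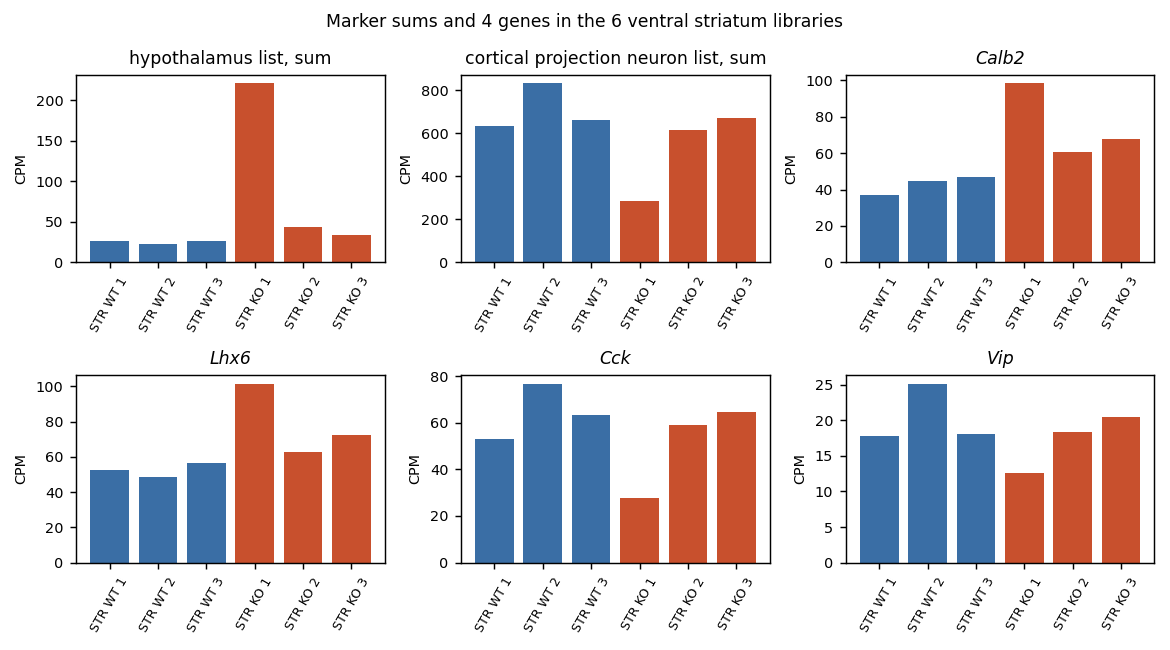
Bars give CPM in the 6 ventral striatum samples (WT blue, KO red) for the summed hypothalamic list, the summed cortical projection neuron list and the genes *Calb2*, *Lhx6*, *Cck* and *Vip*. KO replicate 1 has the highest hypothalamic sum (220.5 CPM), *Calb2* and *Lhx6*, and the lowest cortical sum (284 CPM), *Cck* and *Vip*.

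All 9 genes were well counted in both adult regions, and levels between genes were compared per length, as CPM per kilobase of exon (RPKM). In WT PFC the order was *Sst* (105.5 ± 26.0 RPKM; SD, n = 3), *Cck* (82.1 ± 19.5), *Npy* (81.5 ± 9.73), *Pvalb* (64.0 ± 9.33), *Vip* (21.6 ± 3.12), *Calb2* (11.9 ± 1.46), *Crh* (10.0 ± 1.43), *Lhx6* (8.61 ± 0.894) and *Reln* (3.97 ± 0.349). The ranges of neighbouring genes overlapped between *Sst* and *Cck*, *Cck* and *Npy*, *Calb2* and *Crh*, and *Crh* and *Lhx6*, and were apart elsewhere. In WT STR, *Sst* (110.2 ± 11.0 RPKM) and *Npy* (80.7 ± 9.69) led, followed by *Cck* (49.4 ± 9.03), *Pvalb* (26.4 ± 1.79), *Calb2* (24.6 ± 2.90), *Crh* (11.4 ± 2.85) and *Lhx6* (11.0 ± 0.839), and *Vip* (5.98 ± 1.22) came next to last, above *Reln* (3.27 ± 0.305). Of the RPKM summed over the 9 genes, *Sst* made up 26.9% ± 1.85 in WT PFC and 34.1% ± 0.263 in WT STR, and *Vip* 5.58% ± 0.156 and 1.85% ± 0.308.

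**Figure D2:**
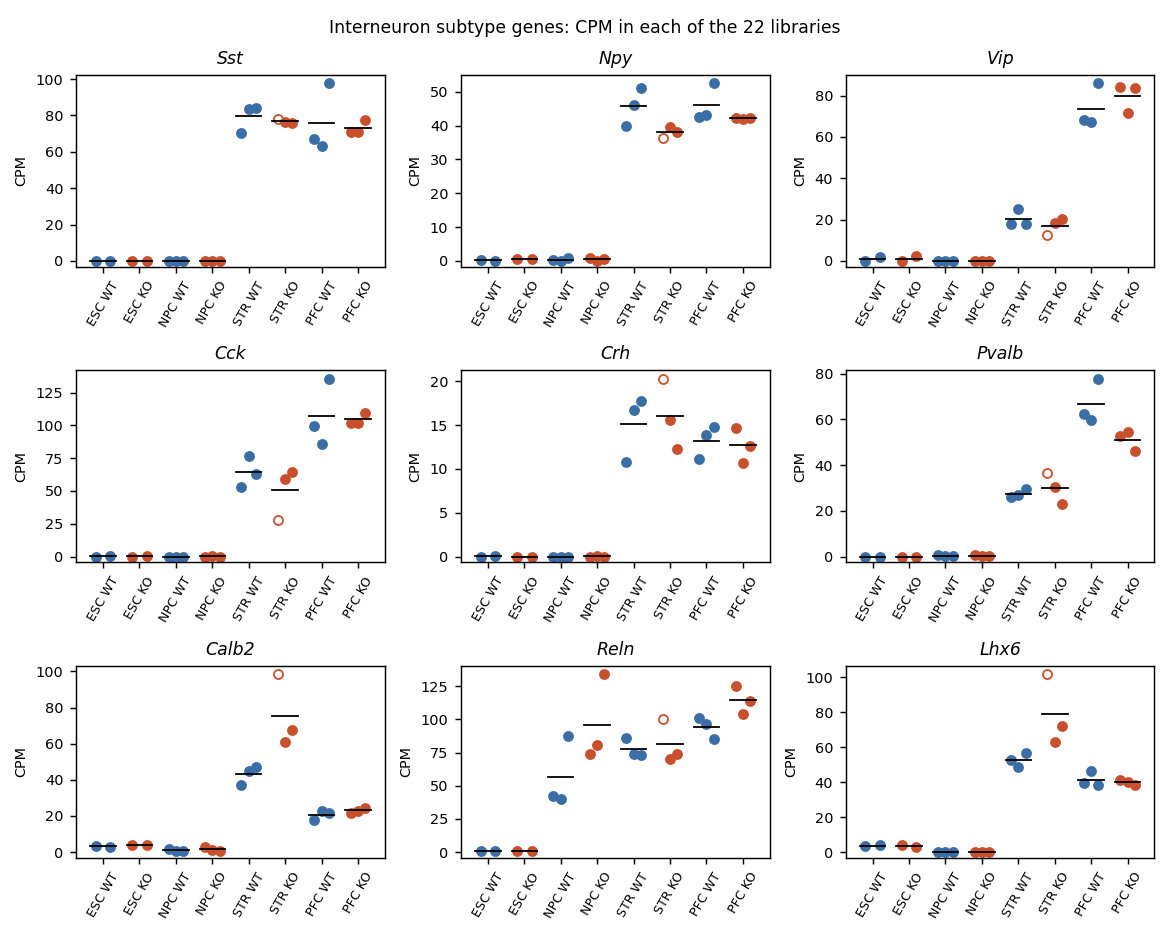
Each panel shows 1 gene, with CPM on a linear axis for the 22 samples by tissue and genotype (WT blue, KO red); each point is a sample, the bar is the group mean, and the open circle is STR KO replicate 1. *Vip*, *Cck* and *Pvalb* are higher in PFC than in STR, *Calb2* and *Lhx6* are lower, and in NPC *Reln* alone reaches brain levels.

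The comparison of PFC with STR in WT mice asked how the subtypes differ between cortex and ventral striatum. *Vip* and *Pvalb* were clearly higher in PFC, *Cck* was moderately higher, *Calb2* was higher in STR, and *Sst*, *Npy* and *Crh* did not pass the test. In all, 5 of the 9 genes passed an FDR of 0.05 (edgeR quasi-likelihood test, adjusted over 15555 genes), 3 higher and 2 lower in PFC, where 24.4% of all genes tested passed, 13% higher and 11.4% lower. The median log2 fold change of the 9 genes was -0.01, beside -0.01 for all genes.

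Among the peptides, *Vip* was at 68.1, 67.0 and 85.9 CPM in the WT PFC samples and at 17.8, 25.1 and 18.1 CPM in the WT STR samples. The groups were far apart, and the fold was 3.55 (log2 1.83, SE 0.15, FDR = 1.1e-05). *Cck* was at 99.7, 86.2 and 136 CPM in PFC and at 53.2, 76.7 and 63.4 CPM in STR. The lowest PFC sample was above the highest STR sample, with a fold of 1.63 (log2 0.70, SE 0.17, FDR = 0.0117). This call was lost with no filter on low counts (FDR = 0.0932) and in a single fit of both genotypes (FDR = 0.0765). *Cck* moved together with the cortical list, whose 10 genes include 9 that were called higher in PFC, and the part of projection neurons in its difference was not tested.

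*Sst* was at 67.3, 63.4 and 97.6 CPM in WT PFC and at 70.3, 83.8 and 84.2 CPM in WT STR. The groups overlapped, and the log2 difference was -0.10 (95% interval -0.43 to 0.24). PFC replicate 3 was the highest of all, and without it *Sst* was lower in PFC by 0.30 on the log2 scale (FDR = 0.0427). *Npy* was at 42.7, 43.3 and 52.5 CPM in PFC and at 40.0, 46.0 and 51.0 CPM in STR, a difference of -0.01 (interval -0.27 to 0.24). *Crh*, the lowest of the 9 genes in CPM, was at 11.1 to 14.7 CPM in PFC and 10.8 to 17.8 CPM in STR, a difference of -0.21 (interval -0.65 to 0.23). For these 3 peptides the intervals exclude a doubling in either direction.

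The calcium-binding proteins went opposite ways. *Pvalb* was at 62.3, 59.7 and 77.7 CPM in WT PFC and at 25.9, 27.1 and 29.5 CPM in WT STR. It was 2.37-fold higher in PFC (log2 1.25, SE 0.12, FDR = 2.9e-05). *Calb2* was at 17.9, 22.9 and 21.5 CPM in PFC and at 37.2, 44.6 and 46.9 CPM in STR. It was 2.10-fold lower in PFC (log2 -1.07, SE 0.13, FDR = 1.4e-04), and both differences were larger than the spread of either group.

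*Reln* was at 101, 96.5 and 84.9 CPM in WT PFC and at 86.1, 74.0 and 73.1 CPM in WT STR. The ranges overlapped and it missed the threshold (log2 0.25, SE 0.10, FDR = 0.0872). With the replicate number as a block, which pairs PFC and STR samples in these data, *Reln* passed (log2 0.25, FDR = 0.00858). With this block 6 of the 9 genes were called, and 34.7% of all genes passed, against 24.4% without it. *Reln* also passed without STR WT replicate 1 (FDR = 0.0333) or PFC WT replicate 3 (FDR = 0.0248). *Lhx6* was at 39.3, 46.3 and 38.5 CPM in PFC and at 52.5, 48.7 and 56.8 CPM in STR. All STR samples were higher, by 1.29-fold (log2 -0.37, SE 0.10, FDR = 0.025). The *Lhx6* call was lost in the joint fit (FDR = 0.083) and without STR WT replicate 1 (FDR = 0.0711), STR WT replicate 3 (FDR = 0.102), PFC WT replicate 1 (FDR = 0.0911) or PFC WT replicate 3 (FDR = 0.0501), while its direction remained.

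In KO mice the same contrast, whose samples are separate from the WT ones, gave 6 of 9 genes past the threshold, 4 higher and 2 lower in PFC, where 27.7% of 15538 genes passed, 13.8% higher and 13.9% lower. *Vip* was at 84.2, 71.6 and 83.4 CPM in KO PFC and at 12.6, 18.3 and 20.5 CPM in KO STR (log2 2.20, SE 0.15, FDR = 3.0e-05). *Calb2* was at 21.8, 22.6 and 24.5 CPM in PFC and at 98.3, 60.7 and 67.7 CPM in STR (log2 -1.74, SE 0.18, FDR = 2.1e-04). *Lhx6* (log2 -1.01, FDR = 0.00224) was lower in PFC, and *Pvalb* (log2 0.74, FDR = 0.0084), *Cck* (log2 1.03, FDR = 0.0194) and *Reln* (log2 0.47, FDR = 0.0334) were higher. *Sst* (log2 -0.09), *Npy* (log2 0.12) and *Crh* (log2 -0.36) did not pass.

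Without STR KO replicate 1 the 6 genes passed again, beside 25% of all genes. Their log2 differences were then 2.02 for *Vip*, 0.74 for *Cck*, 0.91 for *Pvalb*, 0.65 for *Reln*, -1.50 for *Calb2* and -0.78 for *Lhx6*. With no filter on low counts *Cck* (FDR = 0.135) and *Reln* (FDR = 0.0599) missed the threshold. *Cck* also missed it when any PFC KO sample was left out (FDR = 0.0531 without replicate 1, 0.0628 without replicate 2 and 0.0623 without replicate 3). *Reln* also missed it without PFC KO replicate 1 (FDR = 0.121) or 3 (FDR = 0.0944) and without STR KO replicate 2 (FDR = 0.0813) or 3 (FDR = 0.0875).

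**Figure D3:**
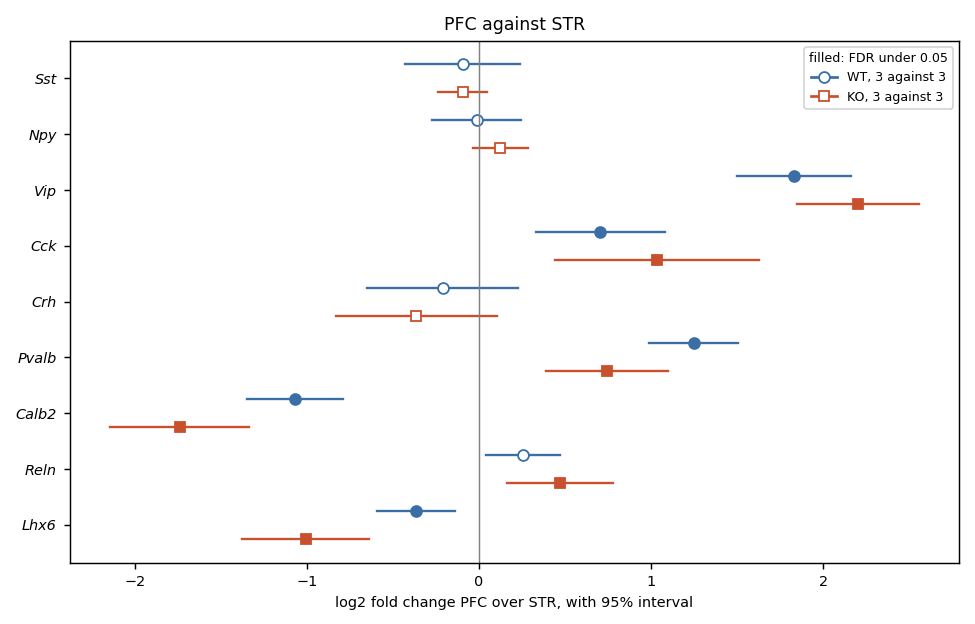
Points give the log2 fold change of PFC over STR with its 95% interval for each gene, in WT (circles) and KO (squares); filled symbols have an FDR under 0.05. *Vip*, *Pvalb* and *Cck* lie to the right in both genotypes, *Calb2* and *Lhx6* to the left, and *Sst*, *Npy* and *Crh* span 0.

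Genes related to these by function were read in the same WT fit. Of 4 genes for GABA synthesis and packaging, 3 were lower in PFC, namely *Gad2* (log2 -1.23) and *Gad1* (log2 -0.35), the GABA-synthesizing enzymes, and the vesicular transporter *Slc32a1* (log2 -0.99). GABA is also the transmitter of striatal projection neurons. Of 18 transcription factors of the ganglionic eminences, 7 were higher and 7 lower in PFC. *Satb1* (log2 2.17), a factor of *Sst* and *Pvalb* cells, and *Npas1* (log2 1.88) were higher, and *Lhx8* (log2 -7.65), *Dlx6* (log2 -2.29) and *Nkx2-1* (log2 -5.06) were lower. Of 26 other subtype genes, 8 were higher, such as *Kcnc2* (log2 1.22), a potassium channel of fast-spiking cells, and *Htr3a* (log2 1.51), a serotonin receptor of *Vip* cells, and 8 were lower, such as the peptide genes *Penk* (log2 -2.15) and *Tac1* (log2 -2.45) of striatal projection neurons.

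The receptors for the peptides also differed by region. Of 17 receptors and partners tested, 7 were higher and 5 lower in PFC. The cholecystokinin receptor *Cckbr* (log2 1.46), the corticotropin-releasing hormone receptor *Crhr1* (log2 1.16) and the somatostatin receptor *Sstr3* (log2 0.78) were higher. *Npy2r* (log2 -2.07), a neuropeptide Y receptor, and *Crhr2* (log2 -2.14) were lower, as was the reelin receptor *Vldlr* (log2 -0.67). Of 8 genes that process or pack prohormones, 4 were higher, led by the convertase *Pcsk1* (log2 1.11), and *Scg2* (log2 -0.67) was lower. The median log2 difference was -0.67 for GABA genes, 0.08 for the transcription factors, -0.02 for the other subtype genes, 0.26 for receptors and 0.19 for prohormone processing.

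In NPCs only *Reln* was expressed at a level like that of adult brain. It was at 42.2, 40.2 and 87.8 CPM in WT NPC samples and at 73.6, 80.8 and 134 CPM in KO NPC samples. Replicate 3 was the highest in both genotypes. In WT ESCs *Reln* was at 1.12 and 0.777 CPM, so that it was 64.3-fold higher in NPCs (log2 6.01, SE 0.57, FDR = 5.8e-04, in a fit where 71.2% of genes passed). Against WT PFC the NPC level was lower by a log2 difference of -0.73 (FDR = 0.0636; 77.1% of genes passed), and against WT STR by -0.48 (FDR = 0.191; 78.1% passed). Without NPC WT replicate 3 these became -1.18 (FDR = 8.8e-05) and -0.93 (FDR = 3.9e-04). *Reln* missed the threshold against PFC in the main test, and DESeq2 (FDR = 0.0173) and the edgeR exact test (FDR = 0.0234) called it.

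The other 8 genes had 0 to 30 counts in each NPC sample. *Sst*, *Cck*, *Crh* and *Lhx6* had 0 counts in all 3 WT NPC samples, which allows up to 0.278 CPM in the shallowest (3 counts; counting error only). The WT PFC level was therefore at least 274-fold higher for *Sst*, 385-fold for *Cck*, 149-fold for *Lhx6* and 47.6-fold for *Crh*. *Vip* had 1 count over the WT NPC samples, a ratio of PFC over NPC of 2637 with a counting interval of 473 to 104210. *Npy* had 4, 0 and 12 counts in WT and 10, 0 and 9 in KO, absent from replicate 2 of both genotypes. *Pvalb* had 9, 2 and 2 counts in WT and 6, 3 and 5 in KO. *Calb2* had 24, 6 and 9 counts in WT and 30, 15 and 9 in KO, highest in replicate 1 of both genotypes.

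Genes around *Reln* and the eminence factors were read in the same WT NPC samples. The reelin receptors *Vldlr* (277 ± 57.5 CPM; SD, n = 3) and *Lrp8* (117 ± 36.8 CPM) and the adaptor *Dab1* (69.6 ± 11.3 CPM), through which reelin signals, were all expressed. Of the 4 GABA genes, 3 were called lower and 1 higher in WT NPC than in WT PFC; among the lower, *Gad1* was at 7.24 ± 2.29 CPM, *Gad2* at 3.26 ± 2.60 CPM and *Slc32a1* at 1 count over the 3 samples. Of the eminence factors, *Sox6* (242 ± 41.6 CPM) and *Satb1* (103 ± 21.8 CPM) were abundant, and *Dlx1* (2.05 ± 1.13 CPM), *Dlx2* (2.73 ± 2.08 CPM) and *Nkx2-1* (3.08 ± 4.19 CPM) were low, with *Lhx8*, like *Lhx6*, at 0 counts. Glial markers were present as well, the astrocyte list at 3292 to 6159 CPM. The oligodendrocyte list was at 219 CPM in WT replicate 2 and 410 CPM in KO replicate 2, and at 1871 to 3116 CPM in the other 4 NPC samples.

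In ESCs a low signal of *Calb2* and *Lhx6* was seen in every sample. *Calb2* had 31 and 35 counts in WT and 42 and 41 in KO, and *Lhx6* had 36 and 44 counts in WT and 42 and 32 in KO. WT *Calb2* was thus at 3.15 and 3.02 CPM in ESCs, above the 0.556 to 1.95 CPM of NPCs (log2 NPC over ESC -1.43, FDR = 0.0697, and 0.0374 by the edgeR exact test; without NPC WT replicate 1, -2.20 and FDR = 0.00718). *Vip* had 20 counts in WT and 24 in KO, and *Cck* 4 and 7, all in replicate 2 of either genotype and none in replicate 1. The microglial list moved with them (8.47 and 9.60 CPM in replicate 2 against 0.916 and 0.360 in replicate 1), as did the cholinergic list (21.5 and 23.9 against 2.34 and 2.97), and the part of these differences in the *Vip* counts was not tested. *Sst* and *Pvalb* had 0 counts in all 4 ESC samples.

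Loss of *Phf8* left the 9 genes without a call in PFC. By the edgeR quasi-likelihood test 0 of 9 passed, where 0.638% of 15364 genes did. At an unadjusted p under 0.05 there were 2, *Pvalb* and *Reln*, beside 11.2% of all genes tested. DESeq2 and the edgeR exact test called 0 as well, beside 0.753% and 2.45% of all genes. The KO and WT ranges were apart for 3 of the 9 genes and for 17.1% of all genes tested. *Pvalb* was at 52.9, 54.6 and 46.1 CPM in KO against 62.3, 59.7 and 77.7 CPM in WT, a log2 difference of -0.38 (interval -0.62 to -0.14, FDR = 0.166), and passed when no filter on low counts was used (FDR = 0.0226). *Reln* was at 125, 104 and 114 CPM in KO against 101, 96.5 and 84.9 CPM in WT (log2 0.27, interval 0.08 to 0.46, FDR = 0.234). *Npy* was at 42.2, 41.9 and 42.4 CPM in KO against 42.7, 43.3 and 52.5 CPM in WT (log2 -0.13, FDR = 0.705).

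The other 6 genes overlapped between genotypes in PFC. Their log2 differences ran from -0.07 for *Lhx6* to 0.13 for *Calb2*, and the widest interval, that of *Crh*, was -0.42 to 0.28. WT replicate 3, the shallowest sample, had the highest *Sst* (97.6 CPM), *Cck* (136), *Vip* (85.9), *Pvalb* and *Npy* of the PFC samples. Without it, *Sst* (log2 0.15) and *Cck* (log2 0.17) turned from slightly lower to slightly higher in KO. The oligodendrocyte list also moved with genotype and with this sample, with sums of 1690 and 1741 CPM in the other WT samples, 2243 CPM in replicate 3 and 1384 to 1477 CPM in the KO samples, and 3 of its 6 genes fell in KO, namely *Mog* (log2 -0.95), *Mag* (log2 -0.60) and *Mobp* (log2 -0.59). Its part in the *Pvalb* difference was not tested. None of the GABA, eminence factor, other subtype, receptor or prohormone genes was called between KO and WT in PFC or STR.

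In STR, *Calb2* and *Lhx6* were higher in each KO sample than in any WT sample, without passing the main test. No gene of the series passed there by that test (0% of 15476, against 60 genes by DESeq2), *Phf8* itself included (log2 -1.37, FDR = 0.0956). Of the 9 genes 0 were called by edgeR's quasi-likelihood test and 3 had an unadjusted p under 0.05, beside 8.7% of all genes tested. DESeq2 and the edgeR exact test each called 1, *Calb2*, beside 0.246% and 0.672% of all genes. *Calb2* was at 98.3, 60.7 and 67.7 CPM in KO against 37.2, 44.6 and 46.9 CPM in WT. The log2 difference was 0.83 (SE 0.18, FDR = 0.397), with an FDR of 0.00244 by DESeq2 and 0.00361 by the exact test. Without KO replicate 1, the sample with the hypothalamic transcripts, it was 0.58 by the main test (interval 0.33 to 0.83, FDR = 0.386). DESeq2 and the exact test were not run without that sample.

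*Lhx6* was at 101.5, 62.8 and 72.3 CPM in KO STR against 52.5, 48.7 and 56.8 CPM in WT. The log2 difference was 0.59 (SE 0.16, FDR = 0.414), and 0.36 without KO replicate 1 (interval 0.13 to 0.59, FDR = 0.851). The remaining KO samples were still above all WT samples for both genes, and both also had a higher hypothalamic sum than any WT sample (44.1 and 33.3 CPM against 22.2 to 26.2 CPM). *Npy* was at 36.4, 39.7 and 38.1 CPM in KO against 40.0, 46.0 and 51.0 CPM in WT, the third of the 9 genes whose ranges were apart (log2 -0.25, FDR = 0.535), as they were for 13.2% of all genes tested. *Cck* differed by -0.35 with KO replicate 1 and by -0.06 without it, and *Crh*, *Pvalb* and *Reln* changed sign (to -0.11, -0.03 and -0.12). Leaving out that sample leaves a hypothalamic sum that is higher in KO, and its part in the *Calb2* and *Lhx6* values was not tested.

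**Figure D4:**
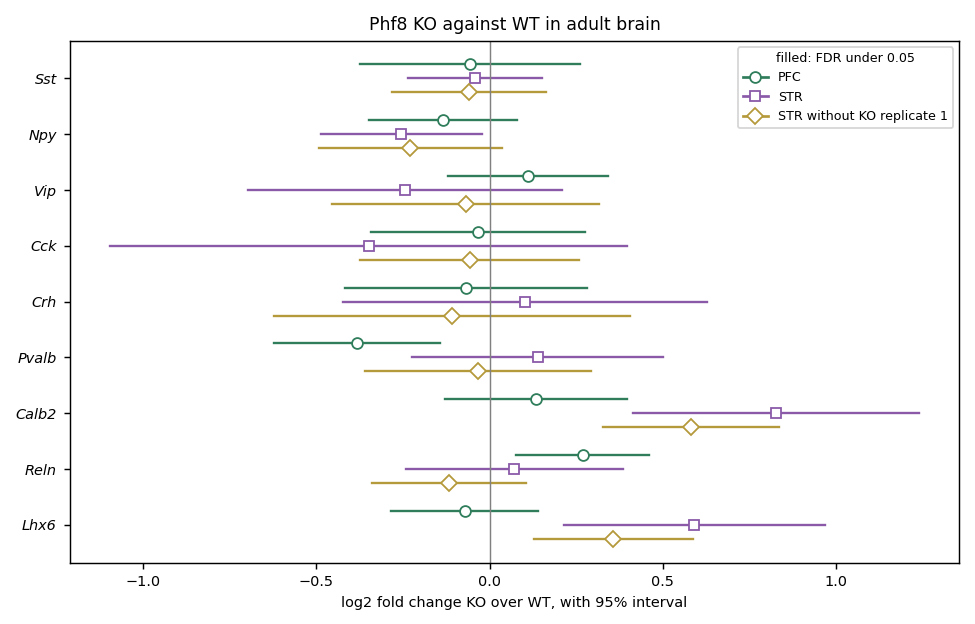
Points give the log2 fold change of KO over WT with its 95% interval for each gene in PFC (circles), STR (squares) and STR without KO replicate 1 (diamonds); open symbols did not reach an FDR of 0.05, which holds for all of them. *Calb2* and *Lhx6* in STR lie above 0 with and without the sample (0.83 and 0.58, 0.59 and 0.36), and *Pvalb* in PFC lies below 0.

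The KO effect was compared between the regions in a single model. Of the 9 genes 0 passed, where 0.00624% of 16028 genes did, and DESeq2 also called 0, beside 0.0739% of all genes. At an unadjusted p under 0.05 there were 3, beside 6.41% of all genes: *Calb2* (PFC minus STR, log2 -0.66, FDR = 0.649), *Lhx6* (log2 -0.63, FDR = 0.632) and *Pvalb* (log2 -0.50, FDR = 0.727). Without STR KO replicate 1 these were -0.44, -0.43 and -0.35.

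In NPCs 2 of the 9 genes had enough counts for the test of genotype and neither was called, where 0.00697% of 14351 genes passed. *Reln* was higher in KO by a log2 difference of 0.76 (interval -0.14 to 1.66, FDR = 0.9998). The KO sample was above the WT sample of the same number in all 3 pairs, and since the numbers pair the NPC samples in these data, the blocked fit gave 0.80 with an FDR of 0.111. *Calb2* differed by 0.50 (interval -1.08 to 2.08). Neither gene was called by DESeq2 or the edgeR exact test, each of which had *Reln* alone at an unadjusted p under 0.05, beside 1.49% and 1.76% of all genes. In the main test 0 of the 2 genes were under it, beside 3.03%. In ESCs 4 genes were tested and 0 were called (0% of 15080 genes, against 3 genes by DESeq2), nor did any have an unadjusted p under 0.05 by edgeR, beside 1.13% of all genes, or by DESeq2. *Calb2* was at 3.78 and 4.06 CPM in KO and at 3.15 and 3.02 CPM in WT (log2 0.34, interval -0.37 to 1.05). *Lhx6* differed by -0.11 (interval -0.80 to 0.58). Same-numbered ESC samples deviated together (r 0.89), and the blocked fit also called 0 of the 4 genes, beside 3.4% of all genes.

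Among samples of the same group, some pairs of the genes deviated together and others did not. Over the 12 brain samples, Pearson's r of the deviations from group means on the log2(CPM + 0.5) scale was 0.91 for *Vip* and *Cck* and 0.84 for *Sst* and *Npy*, and leaving out STR KO replicate 1 gave 0.85 and 0.87. Other pairs rested on that sample. *Calb2* and *Lhx6* went from 0.80 to 0.39 and *Reln* and *Lhx6* from 0.74 to 0.25, whereas *Sst* and *Cck* went from 0.45 to 0.90. *Crh* and *Lhx6* went from 0.44 to -0.0002, and *Pvalb* and *Calb2* from 0.46 to -0.07. *Cck* and *Reln* varied oppositely in both cases (-0.86 and -0.62). PFC WT replicate 3 was the highest PFC sample for *Sst*, *Npy*, *Vip* and *Cck*, and no r was computed without it. No reference from other pairs of genes was computed either. The r values share library, depth and dissection and are descriptive.

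The same was done against the marker lists. *Vip* (0.81, and 0.76 without STR KO replicate 1) and *Cck* (0.90 and 0.63) deviated with the cortical projection neuron list, and *Lhx6* opposite to it (-0.91 and -0.67). *Calb2* followed the hypothalamic list with that sample (0.78) and not without it (0.12), and so did *Lhx6* (0.81 and 0.03). *Pvalb* followed it in both cases (0.76 and 0.67), *Crh* did so less (0.59 and 0.38), and *Reln* turned from 0.68 to -0.30. *Vip* (-0.64 and 0.04) and *Cck* (-0.79 and 0.06) ran opposite to it only with that sample. With the striatal projection neuron list *Lhx6* was at -0.33, and at 0.89 without that sample. *Vip* deviated with the astrocyte list (0.74 and 0.85) as much as with the cortical list. *Sst* (0.69 and 0.84), *Crh* (0.73 and 0.61), *Calb2* (0.75 and 0.54), *Pvalb* (0.66 and 0.43) and *Npy* (0.43 and 0.75) deviated with the oligodendrocyte list in both cases. *Vip* (0.04 and 0.81) and *Cck* (-0.17 and 0.83) did so without that sample, whereas *Reln* (0.20 and -0.57) and *Lhx6* (0.45 and -0.17) turned opposite. The oligodendrocyte list was highest in PFC WT replicate 3 among the PFC samples, and no r was computed without that replicate.

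**Figure D5:**
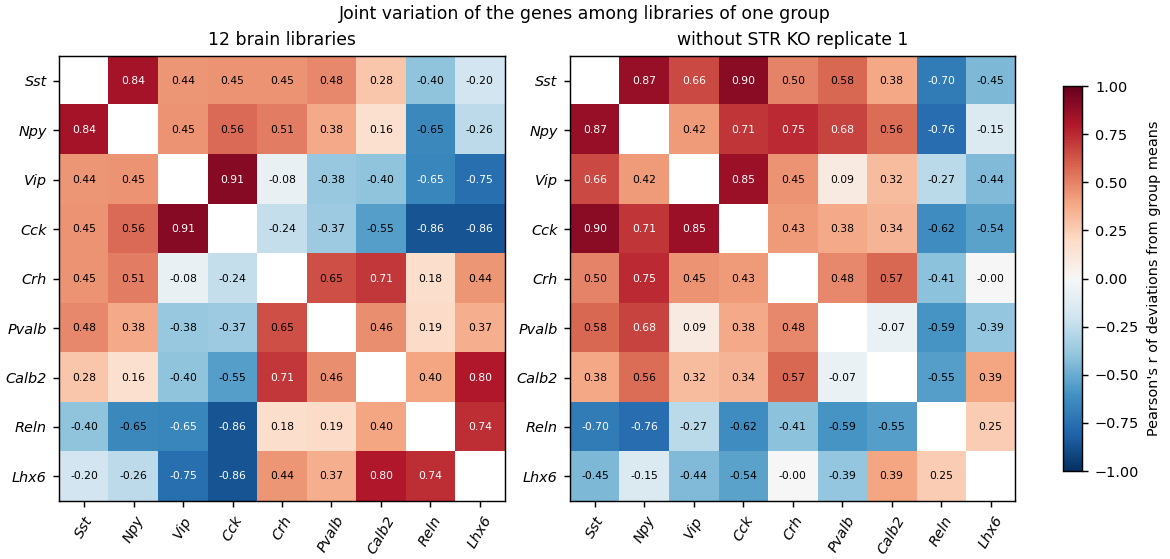
Pearson's r between the genes' deviations from their group means on the log2(CPM + 0.5) scale, for the 12 brain samples (left) and the 11 without STR KO replicate 1 (right); red is positive and blue negative. *Vip* with *Cck* (0.91 and 0.85) and *Sst* with *Npy* (0.84 and 0.87) are high in both panels, and *Calb2* with *Lhx6* (0.80 and 0.39) is high in the left panel. Both panels include PFC WT replicate 3, the highest PFC sample for *Vip*, *Cck*, *Sst* and *Npy*.

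Across all 22 samples, the profile over tissues was shared with many genes. Of 16028 genes, 1518 had an r over 0.95 with *Sst* on the log2(CPM + 0.5) scale, 464 with *Vip* and 191 with *Calb2*, the fewest of the 9. For 8 of the 9 the most alike gene is given, namely *Igfbp6* for *Vip* (r = 0.990), *Cnnm1* for *Npy* (0.996), *Gpr22* for *Cck* (0.995), *Sst* for *Crh* (0.997), *Fxyd7* for *Pvalb* (0.995), *Dnah1* for *Calb2* (0.983), *Osbpl6* for *Reln* (0.992) and *Bbs4* for *Lhx6* (0.994). The points share the contrast of brain with cultured cells, and the values are descriptive.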

How the data were processed

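Raw counts per gene were deposited for each sample; the authors made them with HTSeq (Ensembl annotation, release 75) from alignments by STAR to the mm10 (GRCm38) genome, and the submitters' processing notes also name CASAVA 1.7. Whether counting of the brain libraries used strand is not given in the sources used here. Alignments that were not unique made up 33.2% to 45.5% of reads in cultured cells and 7.62% to 8.90% in brain, so that genes with near copies may be counted low.

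Gene symbols came from GENCODE M21 (37607 of 39179 IDs matched). Rows that name no gene were left out of library sizes; reads outside genes made up 9.42% to 16.8%. Each comparison was fitted on its own groups with edgeR 4.0.16 in R 4.3.3 (filterByExpr, TMM, robust quasi-likelihood test, Benjamini-Hochberg FDR under 0.05); the difference of KO effects used the 12 brain samples. CPM used TMM factors over all 22 samples and RPKM the union of exons. Correlations used log2(CPM + 0.5). Intervals cover 95%. A count of 0 was read as at most 3 counts per library. The scripts were tested on simulated data. Alternatives were DESeq2 1.42.0, edgeR's exact test, RLE factors, no filter, the replicate block, a log2 fold change beyond 1, joint fits and leaving out each sample. Same-numbered KO and WT samples deviated together in NPC (r 0.54 to 0.72) and ESC (0.89). So did same-numbered PFC and STR samples in WT (0.19 to 0.41) and KO (0.15 to 0.20). The pairing was taken from the data, not from a label.

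The genes named are the 9 members, *Phf8*, and from each list up to 3 genes with the smallest p in each direction among those called, or else the most highly expressed; *Oxt*, *Otp* and *Trh* and the related genes given for NPC were named after their values were seen. A few genes that this rule names are not reported here. The genes and lists were chosen with earlier results of these data known. No sample was left out of the main fits, and replicate libraries differed by more than sampling noise.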

Additional observations from a re-analysis of the deposited data

How the results depend on the processing

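Direction and call held for every alternative that was run for *Vip* and *Calb2* in PFC against STR, in both genotypes, and for *Pvalb* except that its KO difference (log2 0.74) is below a log2 fold change of 1. Of the 9 genes, 1 was called between KO and WT in PFC with no filter (*Pvalb*), beside 1.57% of all genes. With all STR samples, 1 was called by DESeq2 and by the edgeR exact test (*Calb2*), beside 0.246% and 0.672% of all genes. In WT, 3 rather than 5 were called between the regions in a joint fit of both genotypes, beside 26.1% of all genes. At a log2 fold change beyond 1, 3 were called, beside 8.31% of all genes. The difference of KO effects for *Sst* became -0.00795 with no filter. Leaving out single samples turned the sign of some log2 differences, none of which was called by the main test. The ranges of these differences given next are over all the alternatives that were run. For KO against WT in PFC they ranged from -0.17 to 0.15 (*Sst*), -0.17 to 0.17 (*Cck*), -0.19 to 0.0453 (*Crh*) and -0.11 to 0.0282 (*Lhx6*). In STR they ranged from -0.12 to 0.0011 (*Sst*), -0.11 to 0.26 (*Crh*), -0.0331 to 0.30 (*Pvalb*) and -0.12 to 0.16 (*Reln*). In cultured cells they ranged from -0.15 to 1.28 (*Calb2*, NPC), -6.32 to 6.67 (*Vip*, ESC, counted in replicate 2 only) and -0.24 to 0.23 (*Reln*, ESC). For PFC against STR in WT they ranged from -0.30 to 0.0262 (*Sst*) and -0.11 to 0.0710 (*Npy*), and for the difference of KO effects from -0.13 to 0.22 (*Sst*) and -0.32 to 0.0429 (*Crh*). The cause of these changes was not tested.

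The replicate block moved the count of members called only for PFC against STR in WT, from 5 to 6. The share of all genes called in that comparison rose from 24.4% to 34.7%. Replicate numbers did not pair the KO and WT samples of PFC (r from -0.03 to 0.06) or STR (-0.02 to 0.13), and the block called 0 members there. Over all genes, calls moved by more than 1.5 times in PFC KO against WT (98, with 2 to 379 under the alternatives) and STR (0, with up to 104), in ESC (0, with 513 under the block), in NPC (1, with 0 to 3) and for the difference of KO effects (1, with up to 19). At a log2 fold change beyond 1, they also fell from 3791 to 1292 for PFC against STR in WT and from 4301 to 1319 in KO. For NPC against STR in WT they fell from 12436 to 8111. With 3 samples a group, and 2 in ESC, small differences were not detectable, and low counts limit what can be said of every member but *Reln* in NPC and of all members in ESC.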
